A study of Mus musculus with 2 samples.

Results

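Immediate-early genes are the first genes that a cell transcribes after a signal, and many of them, with heat shock genes, are also known to be switched on while a tissue is being digested into single cells. A list of 38 such genes was followed in mouse uterine stromal cells, the connective tissue cells under the uterine epithelium that turn into secretory decidual cells once an embryo implants. The list holds 18 transcription factors, 13 feedback genes, 2 secreted CCN proteins and 5 heat shock genes. Members were found by symbol among the probe sets that the platform annotation gives exactly 1 gene, older symbols included, and all 38 were on the array, with 62 of the 20380 probe sets of this kind and 38 of 12393 genes.

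The knockout-labelled group was RNA of stromal cells from 3 conditional knockout mice pooled on 1 array, and the control group was RNA of stromal cells from 3 floxed control mice pooled on another. In both groups the mice were on day 5 of pregnancy after mating with fertile males, the uterine horns had been digested with enzymes, and the RNA was labelled with a kit that copies from the poly-A tail. The labels disagree on the deleted gene. The titles call the groups Hif1 cKO and Hif1 flox control, the genotype field calls them Hif2 alpha-null and Hif2 alpha-intact, and the breeding note names Rac1, with Cre brought in by PRcre mice, in which the progesterone receptor gene drives the recombinase in the cells that express this receptor. Strain and age were not given in the sources used here. Since each group is a single array, nothing was replicated and no difference could be tested, and every value describes these 2 pools and not the genotypes.

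Immediate-early transcription factors need no new protein synthesis to be induced. ERK and related kinases activate factors already bound at their promoters, such as serum response factor and CREB, and the mRNAs appear and decay again quickly. The FOS and JUN families pair into the AP-1 dimer, while EGR, KLF and NR4A proteins bind DNA on their own. A second set of genes is induced at the same time and ends the response. DUSP phosphatases switch kinases off, ZFP36 proteins bring AU-rich mRNAs to decay, and the IkB-alpha protein, encoded by Nfkbia, holds NF-kB in the cytoplasm. Heat shock genes answer to unfolded protein through the factor HSF1. In the uterus, AP-1, EGR1 and KLF proteins are known as stromal targets of steroid hormones and of signals from the implanting embryo.

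The arrays differed in RNA quality in the same way as in label. The signal at the 3' end over that at the 5' end was 16.0 on the knockout-labelled array and 2.27 on the control array for b-actin, and 7.25 and 1.49 for Gapdh. All 14 stromal markers looked at were above the floor, a signal of 19.7, on the knockout-labelled array and 13 of 14 on the control array, Esr1 being at the floor there, with a summed signal of 46418 and 33855. Of these 14, 9 were higher by any amount and 5 lower, and 1 was lower by 2-fold or more, Hoxa11 (107.7 and 389, log2 ratio -1.85). Endothelial markers had a summed signal of 2222 on the knockout-labelled array and 3819 on the control array, with 5 of 12 lower by 2-fold or more and Tie1 at the knockout-labelled array's floor. Of 10 smooth muscle markers 4 were lower by 2-fold or more (summed signal 12314 and 12763), and of 12 myeloid markers 6 were lower by 2-fold or more and 2 higher by 2-fold or more (4377 and 4742), with Aif1 at the knockout-labelled array's floor. Epithelial markers summed to 2019 and 2534, with 3 of 11 lower by 2-fold or more (Krt18, Cldn3 and Cldn4), Krt19 at the floor on both arrays and Ltf on the control array, and lymphoid markers to 1170.01 and 1245, with 2 of 9 lower and 1 higher by 2-fold or more, Cd3e and Cd79a at the floor on both arrays and Cd2 and Ncr1 on the knockout-labelled one. Over all genes compared, 13.0% were lower and 6.21% higher by 2-fold or more. In a bulk sample, fewer cells of a type and less RNA per cell cannot be told apart. The part of RNA quality and of these cell types in the values below was not tested. Of the genes named as targets, Epas1 had a signal of 78.1 on the knockout-labelled array and 59.4 on the control array. Hif1a had 1544 and 721, and was higher at all 3 measured probe sets (log2 ratios 1.10, 1.38 and 0.52). Rac1 was lower at both measured probe sets, with 757 and 1038 (-0.46) and with 332 and 664 (2.00-fold lower).

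No member was higher by 2-fold or more on the knockout-labelled array, and 7 were lower by 2-fold or more. The 7 were the transcription factors Junb, Klf2 and Myc, the feedback genes Btg2, Zfp36 and Gadd45g, and the small heat shock gene Hspb1. Each gene was represented by its brightest probe set, and 37 members could be compared, Egr3 being at the floor on both arrays. The count of 7 is 18.9% of the members compared, beside 13.0% of all 8593 genes lower by 2-fold or more, and the count of 0 stands beside 6.21% of all genes higher by 2-fold or more. The median log2 ratio, knockout-labelled over control, was -0.02 over the 37 members and -0.10 over all genes. By any amount 20 members were lower and 17 higher, and 55.3% of all genes were lower.

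Most members lay among the bright genes, where ratios ran higher. Of the 37 members, 30 were in the brightest 20% of all genes, and 5 of these 30, or 16.7%, were lower by 2-fold or more, beside 6.69% of the 1719 genes in that bin. None of the 30 was higher by 2-fold or more, beside 7.45% of the bin. The median log2 ratio was 0.00 over the 30 members and 0.31 over the bin, and 50% of the members in it were lower by any amount against 35.8% of the bin. As a measure of error, the log2 ratios of the 2 brightest probe sets measuring one gene differed with an SD of 0.91 about the mean difference (2660 genes). The root mean square difference, which keeps the mean difference in, was 0.99. The SD of 0.91 gives an SD of 0.64 for a single log2 ratio. That SD leaves out the mean difference and the spread between animals, pools and arrays.

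**Figure D1:**
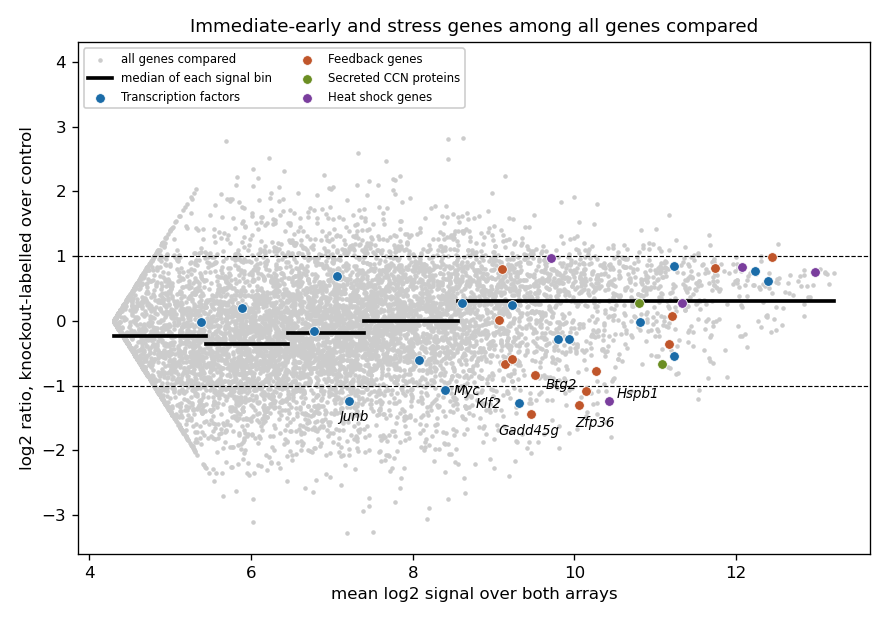
The log2 ratio of knockout-labelled over control (y axis) is plotted against the mean log2 signal of both arrays (x axis) for 8593 genes in grey and for 37 immediate-early and stress genes in colour, with a black bar at the median of each of 5 equal signal bins. The 7 labelled genes lie at or below the lower dashed line of 2-fold, no coloured point lies above the upper one, and the bar of the brightest bin is at 0.31.

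The transcription factors did not move as a block. Of 17 compared, 3, or 17.6%, were lower by 2-fold or more, beside 13.0% of all genes, 7 were higher by any amount and 10 lower, with a median log2 ratio of -0.02 and a range from -1.27 for Klf2 to 0.85 for Jund. Within the FOS family, Fos had a signal of 6675 on the knockout-labelled array and 4369 on the control array, a log2 ratio of 0.61. Fosb, whose protein takes the same place in the AP-1 dimer, had 219 and 332 (-0.60), and Fosl2 had 41.3 and 41.8 (-0.02). Fos was thus higher and Fosb lower on the knockout-labelled array, and none of the 3 reached 2-fold. All 3 differed by less than 0.64, the SD given above for a single log2 ratio.

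The JUN family spread more widely. Junb, had a signal of 96.5 on the knockout-labelled array and 228 on the control array, a log2 ratio of -1.24. Jund, the JUN family member known for its steady expression, had 3214 and 1785 (0.85). Junb was therefore lower and Jund higher on the knockout-labelled array. Jun itself had 1988 and 2908 at the brighter of its probe sets (-0.55), but 1035 and 988 at the dimmer one (0.07), so its sign depended on the probe set.

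The EGR genes, zinc finger factors induced through ERK and serum response factor, were higher where they could be measured. Egr1 had a signal of 6268 on the knockout-labelled array and 3662 on the control array, a log2 ratio of 0.78. Egr2 had 170.4 and 105 (0.69), and its dimmer probe set had 161 and 104.6 (0.62). Neither gene reached 2-fold, and the probe sets of Egr2 lay 0.07 apart. Bright genes ran higher on these arrays, and with the trend of ratio on signal removed Egr1 was at 0.34, Fos at 0.15 and Jund at 0.53. Egr3 had signals of 3.44 and 1.99, both below the floor, which is no proof that the gene is silent.

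Among the KLF genes, Klf2 was the one past 2-fold at its brightest probe set. Klf2, a factor best known for keeping endothelium quiescent under flow, had a signal of 409 on the knockout-labelled array and 986 on the control array, a log2 ratio of -1.27, on arrays where the endothelial markers also differed as given above. Klf4, an inhibitor of proliferation in many tissues, had 1779 and 1799 (-0.02), and its other probe set gave -0.18. Klf10, a TGF-beta-inducible repressor, had 430.02 and 354 (0.28). Klf6 had 3 probe sets that did not go one way. The brightest had 651 and 548 (0.25), the next 214 and 371 (-0.79), and the dimmest by mean log2 signal 381 and 185 (1.04). The direction of Klf6 was therefore not settled.

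Of the remaining factors, Myc alone was past 2-fold. Myc, the driver of growth and ribosome production, had a signal of 234 on the knockout-labelled array and 488 on the control array, a log2 ratio of -1.06, just past 2-fold. The orphan nuclear receptor Nr4a1 had 886 and 1079 (-0.28), and Nr4a2 had 63.4 and 55.4 (0.20), with 0.23 at its other probe set. The stress-induced factor Atf3 had 808 and 982 (-0.28). The small Maf protein gene Maff had 104.1 and 116 (-0.16). These 4 genes differed by less than 0.64, the SD given above for a single log2 ratio.

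**Figure D2:**
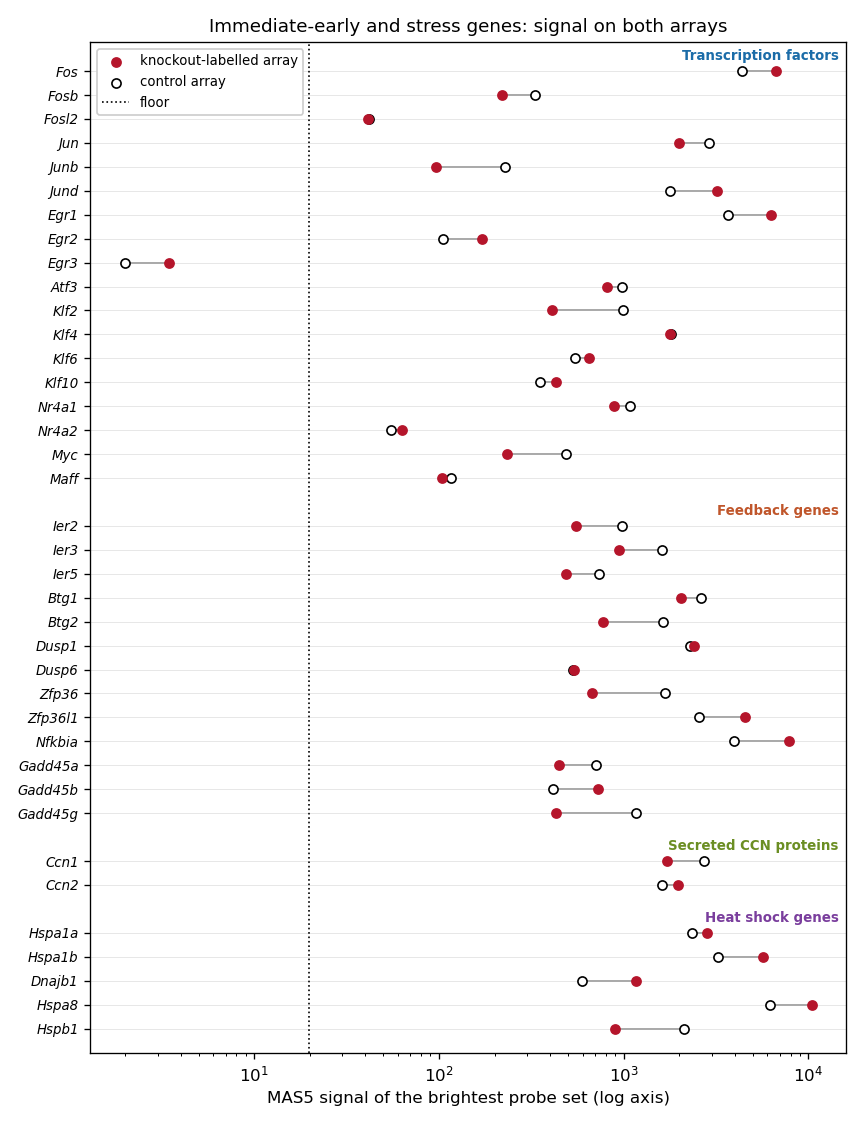
For each of the 38 genes the MAS5 signal of its brightest probe set is shown on a log x axis, filled red for the knockout-labelled array and open for the control array, joined by a grey line, with the floor as a dotted line. The red points of Junb, Klf2, Myc, Btg2, Zfp36, Gadd45g and Hspb1 lie left of their open points by at least 2-fold, and Egr3 lies left of the floor on both arrays.

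In the feedback set, which also holds the IER, BTG and GADD45 genes, members lower at their brightest probe sets outnumbered those that were higher. The DUSP, ZFP36 and IkB-alpha genes, described above as ending the response, were not lower as a group. At their brightest probe sets Zfp36 was lower (-1.30), but Dusp1 (0.07), Dusp6 (0.02), Zfp36l1 (0.82) and Nfkbia (0.99) were not. Of 13 compared, all in the brightest 20%, 3, or 23.1%, were lower by 2-fold or more. By as much, 13.0% of all genes and 6.69% of the brightest 20% were lower. None of the 13 was higher by 2-fold or more, beside 6.21% of all genes and 7.45% of the brightest 20%. By any amount 8 were lower and 5 higher, where 55.3% of all genes and 35.8% of the brightest 20% were lower. The median log2 ratio was -0.58, against -0.10 over all genes and 0.31 over the brightest 20%. The median of the 13 was -0.16 when the probe sets of a gene were reduced to their median. Zfp36, which encodes tristetraprolin, a protein that binds AU-rich mRNAs such as those of cytokines and brings them to decay, had a signal of 678 on the knockout-labelled array and 1667 on the control array, a log2 ratio of -1.30 (2.46-fold lower). Btg2, an antiproliferative partner of the CCR4-NOT deadenylase, was lower at both of its probe sets. It had 774 and 1640 at the brightest (-1.08), and 240.4 and 686 at the other (-1.51). Gadd45g, a growth arrest protein that binds a kinase upstream of p38 and JNK, had 431 and 1162 (-1.43). This was the lowest ratio among the brightest probe sets of the members.

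The promoters of 3 feedback genes are shown because they carry the binding letters of the factors that start and end the response. Each stretch is the 250 bases before the RefSeq start (GRCm38.p6), read 5' to 3' on the strand of the gene, and capitals mark the motif matches on either strand. In Zfp36 (minus strand, chr7:28379229-28379478) they mark an EGR motif and a CArG box, the letters of serum response factor. In Btg2 (minus strand, chr1:134079156-134079405) they mark a CRE, the CREB motif, and an EGR motif. In Nfkbia (minus strand, chr12:55492648-55492897) they mark an NF-kB motif, through which NF-kB is known to induce its own inhibitor.
Zfp36: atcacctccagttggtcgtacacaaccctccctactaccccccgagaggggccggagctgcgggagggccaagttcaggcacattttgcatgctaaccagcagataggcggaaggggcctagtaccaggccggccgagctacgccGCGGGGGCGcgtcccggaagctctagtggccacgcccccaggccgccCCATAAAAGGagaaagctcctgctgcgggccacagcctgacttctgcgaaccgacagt
Btg2: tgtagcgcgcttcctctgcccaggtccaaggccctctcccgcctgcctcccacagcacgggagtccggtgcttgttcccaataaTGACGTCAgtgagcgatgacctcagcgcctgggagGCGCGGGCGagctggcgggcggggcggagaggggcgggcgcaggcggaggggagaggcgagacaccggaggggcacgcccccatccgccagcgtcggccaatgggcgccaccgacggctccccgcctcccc
Nfkbia: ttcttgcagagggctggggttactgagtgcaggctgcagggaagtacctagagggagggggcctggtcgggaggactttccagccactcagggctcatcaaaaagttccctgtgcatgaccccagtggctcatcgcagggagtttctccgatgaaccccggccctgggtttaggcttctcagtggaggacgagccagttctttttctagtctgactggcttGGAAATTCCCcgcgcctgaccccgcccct

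The same letters were counted over all promoters, and a match is not a bound site. RefSeq promoter windows, from 250 bases before to 50 after a start, matched 31 of the 38 members and not Egr1, Egr3, Klf10, Myc, Ier2, Ccn2 and Hspa8. The EGR motif (GCGNGGGCG, both strands) was in the windows of 10 of these 31 genes and in 5.55% of all 32851 windows. The CArG box was in those of 2 genes, Zfp36 and Egr2, and in 1.63% of all windows. The CRE (TGACGTCA) was in those of Btg2, Dusp1 and Maff and in 1.79% of all windows. The NF-kB motif was in those of 7 genes and in 4.51% of all windows, and the AP-1 motif (TGANTCA) in that of Zfp36l1 and in 7.81% of all windows. Some genes have several windows, and windows of a gene can overlap, so the 31 genes have 38 windows. Of these 38 windows, 10 held the EGR motif, 5 the CArG box and 3 the CRE. The NF-kB motif was in 7 of the 38 and the AP-1 motif in 1. The members with an EGR motif ran from -1.30 for Zfp36 to 0.81 for Gadd45b in log2 ratio.

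The IER genes and the other GADD45 and BTG genes showed smaller differences. Ier2 had a signal of 549 on the knockout-labelled array and 978 on the control array (-0.83), and Ier3, a survival protein, had 939.6 and 1605 (-0.77). Ier5 had 489 and 734 (-0.58), but its next probe set went the other way with 72.4 and 50.6 (0.52), and its dimmest was at the floor on both arrays. All 3 IER genes were lower at their brightest probe sets, and none reached 2-fold. Gadd45a, a stress-induced arrest gene, had 448 and 710.4 (-0.66). Gadd45b had 726 and 415 (0.81), but its next probe set had 224 and 305 (-0.45). A last probe set of Gadd45b had 24.7 on the knockout-labelled array and 16.0, below the floor, on the control array, a log2 ratio of at least 0.32. Btg1, the relative of Btg2, had 2044 and 2614 (-0.35), and its other probe set had 2106 and 1635 (0.36). Of the GADD45 genes, Gadd45g alone was past 2-fold, and the direction of Gadd45b and Btg1 depended on the probe set.

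The phosphatases differed little. Dusp1, a nuclear phosphatase of p38 and JNK, had a signal of 2414 on the knockout-labelled array and 2293 on the control array (0.07), and Dusp6, a cytoplasmic phosphatase of ERK, had 538 and 531 (0.02). Nfkbia and Zfp36l1, by contrast, gave values that could not be joined into one direction. Nfkbia had 7861 and 3968 at its brightest probe set (0.99), short of 2-fold, then 2899 and 2388 (0.28), 969 and 1594 (-0.72), and 470.5 and 114 (2.04). Its 4 probe sets thus spanned 2.76 log2 units. Zfp36l1, the relative of Zfp36, had 4535 and 2562 (0.82), but its other probe set had 281 and 620 (-1.14).

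The 2 CCN genes encode secreted matrix-bound proteins and are known targets of YAP and serum response factor. Ccn1, formerly Cyr61, had a signal of 1718 on the knockout-labelled array and 2715 on the control array (-0.66), and at its other probe set 248 and 757 (-1.61). Ccn1 was lower at both probe sets, and past 2-fold only at the dimmer. Ccn2, the connective tissue growth factor, had 1971 and 1621 (0.28). The pair therefore had opposite signs as deposited. With the trend of ratio on signal removed Ccn2 was at 0.01 and Ccn1 at -0.97. After quantile normalization Ccn2 was at 0.05 and Ccn1 at -0.92.

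Heat shock genes were higher at their brightest probe sets except for Hspb1. Of 5 compared, 1, or 20%, was lower by 2-fold or more and none higher by 2-fold or more. These counts stand beside 13.0% of all genes lower and 6.21% higher by as much. In the brightest 20%, to which all 5 belong, the shares were 6.69% and 7.45%. By any amount 4 were higher and 1 lower, where 1104 of the 1719 genes in the brightest 20% were higher and 35.8% lower. The median log2 ratio was 0.75, where the brightest 20% had 0.31. Hspb1, a small heat shock protein that guards actin and unfolded protein, was lower at both of its probe sets. It had a signal of 893 on the knockout-labelled array and 2111 on the control array at the brightest (-1.24), and 799.6 and 1600.2 at the other, also past 2-fold. Hspa1a, one of the paired genes of inducible HSP70, had 2831 and 2331 (0.28). Hspa1b, the other, had 5704 and 3220.2 at its brightest probe set (0.82), but 3288 and 3688 (-0.17) and 2663 and 2677 (-0.01) at the others. The 2 genes are near-identical copies, so RNA of one may be measured by the probes of the other and their values are uncertain.

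The co-chaperone and the constitutive HSP70 also depended on the probe set. Dnajb1, an HSP40 protein that hands clients to HSP70, had a signal of 1170.45 on the knockout-labelled array and 595 on the control array (0.98), but its other probe set had 147 and 309 (-1.07). Hspa8, the HSP70 that is made without stress, had 10408 and 6199 at its brightest probe set (0.75). Its 3 others had 2798 and 3418 (-0.29), 1408 and 1536 (-0.13), and 467 and 516 (-0.14). When all probe sets of a gene were reduced to their median instead, the median of the 5 heat shock genes was -0.048. It was 0.13 after quantile normalization, 0.22 with the trend of ratio on signal removed and 0.28 without _s_at and _x_at probe sets. The median thus depended on both the probe set rule and the scaling, while Hspb1 was lower under all 8 alternatives.

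The promoters of the HSP70 pair and of Hspb1 are shown because all 3 hold the paired HSF1 letters (GAANNTTC, in capitals). Hspb1 was lower at both of its probe sets, and the direction of the HSP70 pair was not settled. Each is again the 250 bases before the RefSeq start in GRCm38.p6. Hspa1a lies on the minus strand at chr17:34972157-34972406, Hspa1b on the minus strand at chr17:34959239-34959488, and Hspb1 on the plus strand at chr5:135887669-135887918.
Hspa1a: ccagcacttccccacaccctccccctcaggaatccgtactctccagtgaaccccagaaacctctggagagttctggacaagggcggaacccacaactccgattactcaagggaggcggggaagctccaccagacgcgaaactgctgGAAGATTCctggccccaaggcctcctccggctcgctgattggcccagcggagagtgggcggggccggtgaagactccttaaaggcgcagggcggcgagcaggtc
Hspa1b: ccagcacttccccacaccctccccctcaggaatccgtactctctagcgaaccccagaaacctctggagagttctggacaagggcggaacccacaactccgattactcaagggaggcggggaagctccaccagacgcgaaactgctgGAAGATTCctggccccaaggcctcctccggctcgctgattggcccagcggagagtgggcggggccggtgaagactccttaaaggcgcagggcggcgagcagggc
Hspb1: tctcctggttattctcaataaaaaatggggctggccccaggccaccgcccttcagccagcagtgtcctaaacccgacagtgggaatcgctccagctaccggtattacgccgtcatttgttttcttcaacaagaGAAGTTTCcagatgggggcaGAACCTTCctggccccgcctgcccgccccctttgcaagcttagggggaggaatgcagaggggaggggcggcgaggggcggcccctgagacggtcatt

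The stretches of Hspa1a and Hspa1b were identical at 247 of 250 bases, 98.8%, with the match at the same place, from base -104 to -97 before the start. Hspb1 had 2 matches, from -117 to -110 and from -97 to -90. The letters GAANNTTC were in 7.86% of all windows, and in those of 5 members, the 3 heat shock genes, Jun and Fosl2. The other order of the HSF1 letters, TTCNNGAA, was in 8.52% of all windows. It was in those of 2 members, Ccn1 and Egr2, and of none of the 4 heat shock genes with windows. Either order was in 15.1% of all windows and in those of 7 members. Of the 38 windows of members, 5 held GAANNTTC, 2 held TTCNNGAA and 7 held either order. Neither of the windows of Dnajb1 held GAANNTTC or TTCNNGAA, which says only that these letters are not in these windows.

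Probe sets of a member often went different ways. Of 16 members with several probe sets above the floor on both arrays, 10 had opposite signs among them, 62.5%, beside 55.0% of 2660 such genes and 68.3% of the 1033 that lay in the brightest 20%. A spread of at least 1 log2 unit was found for 7 of the 16, 43.8%, beside 44.1% of all such genes and 60.3% of those in the brightest 20%. The widest spreads were those of Nfkbia (2.76), Dnajb1 (2.05), Zfp36l1 (1.96) and Klf6 (1.84). The 6 members with one sign throughout were Ccn1, Btg2, Hspb1, Klf4, Egr2 and Nr4a2. Of the 7 members lower by 2-fold or more, Btg2 and Hspb1 had a further probe set, past 2-fold in both cases, and Junb, Klf2, Myc, Zfp36 and Gadd45g rest on 1 probe set each. Where on the transcript each probe set lies was not analysed here.

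**Figure D3:**
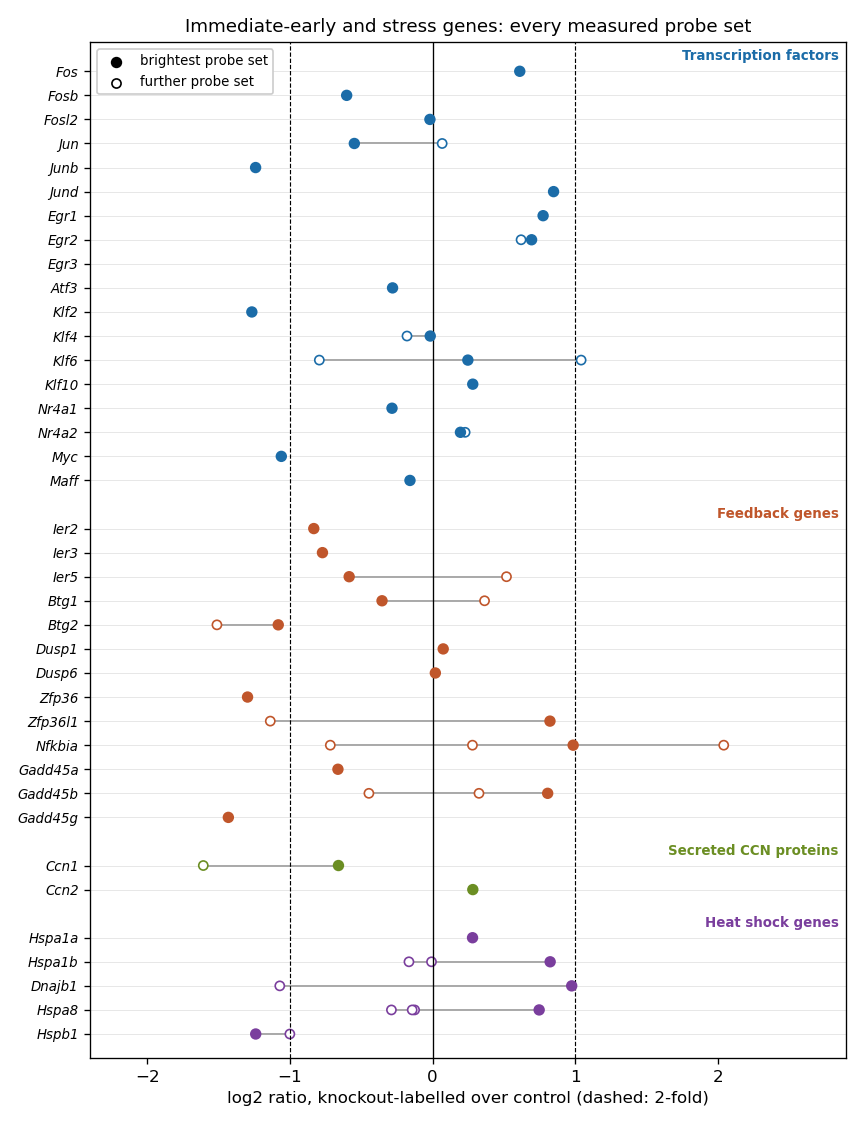
Each point is the log2 ratio (x axis, knockout-labelled over control) of 1 of the 60 measured probe sets of 37 genes, filled for the brightest of a gene and open for further ones, with a line over their range. Both points of Btg2 and Hspb1 lie at or left of the dashed 2-fold line, and the lines of Nfkbia, Dnajb1, Zfp36l1 and Klf6 cross 0 with spreads of 1.84 to 2.76.

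Counted by probe set, 12 of 60 measured probe sets of members, 20%, were lower by 2-fold or more and 2, or 3.33%, higher by 2-fold or more, beside 13.9% and 6.84% of 13284 probe sets. Only Klf6 and Nfkbia had a probe set higher by 2-fold or more.

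Other genes of the same response, taken from a list beyond the 38, went both ways. Of 28 further immediate-early genes compared, 1, or 3.57%, was lower by 2-fold or more and 3, or 10.7%, higher by 2-fold or more. Of all genes, 13.0% were lower and 6.21% higher by as much. The median log2 ratio of the 28 was 0.01. Hes1, a repressor induced by Notch, had a signal of 42.6 on the knockout-labelled array and 99.0 on the control array (-1.22). The inducible prostaglandin synthase Ptgs2 had 308 and 93.2 (1.72), with 0.23 at its other probe set. Socs3, the feedback inhibitor of STAT3 signalling, had 4908 and 2182 (1.17), with 0.75 and -0.12 at others, and the cytokine Il6 had 159.7 and 73.8 (1.11). Ptgs2, Socs3 and Il6 were thus the 3 higher genes, and Socs3 changed sign at its dimmest probe set.

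Feedback inhibitors outside the list and the kinases upstream had no gene lower by 2-fold or more, where 13.0% of all genes were. Of 16 further feedback genes compared, 2, or 12.5%, were higher by 2-fold or more, beside 6.21% of all genes (median 0.03). Spry2, an inhibitor of receptor tyrosine kinase signalling, had a signal of 736 on the knockout-labelled array and 288 on the control array (1.35), its other probe set being at the floor on both arrays. Its relative Spred1 had 325 and 149 (1.13), with 0.61 and 1.10 at its others. Of 15 genes of ERK, JNK and p38 signalling, 2, or 13.3%, were higher by 2-fold or more (median -0.16), again beside 6.21% of all genes. They were the kinase gene Rps6ka3 (657 and 217, 1.60, with 0.59 at a further probe set) and the factor gene Atf2 (270.4 and 119, 1.18, with 0.64 and 1.59 at others). Spred1, Rps6ka3 and Atf2 kept their sign at all measured probe sets.

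The wider heat shock machinery went both ways. Of 23 further genes compared, 3, or 13.0%, were lower by 2-fold or more and 2, or 8.70%, higher by 2-fold or more. These shares lie near the 13.0% and 6.21% of all genes. The median log2 ratio of the 23 was -0.18. The HSP90 co-chaperones Cdc37 (signal 99.0 on the knockout-labelled array and 417 on the control array, -2.08) and Stip1 (69.2 and 199, -1.53) were lower, each at 1 measured probe set. The mitochondrial chaperonin partner Hspe1 was lower at both of its probe sets (799.6 and 1676, -1.07, and 121 and 378, -1.64). Hsp90aa1, the stress-inducible HSP90, had 2735 and 1251 (1.13) and was higher at its other probe sets too (0.47 and 0.97).

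Of the 3 other scalings, median centring changed how many members passed 2-fold. With each array centred on its median, which moved the median log2 ratio of all genes to 0.16, against -0.10 as deposited, 2 members, Gadd45g and Zfp36, were lower by 2-fold or more and 8 higher by 2-fold or more, beside 7.79% and 13.3% of all genes. After quantile normalization or removal of the trend with signal, the 7 lower members were the same genes and none was higher by 2-fold or more. Of the 8 alternatives, the 3 other scalings left Zfp36 and Gadd45g lower by 2-fold or more. Junb, Klf2, Myc, Btg2 and Hspb1 stayed so except under median centring, where they ran from -0.99 for Klf2 to -0.78 for Myc. The other floors and probe set rules left all 7 past 2-fold. They could not move Zfp36, Gadd45g, Junb, Klf2 and Myc, which have 1 bright probe set each. A pseudocount in place of the floor moved these genes little.

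**Figure D4:**
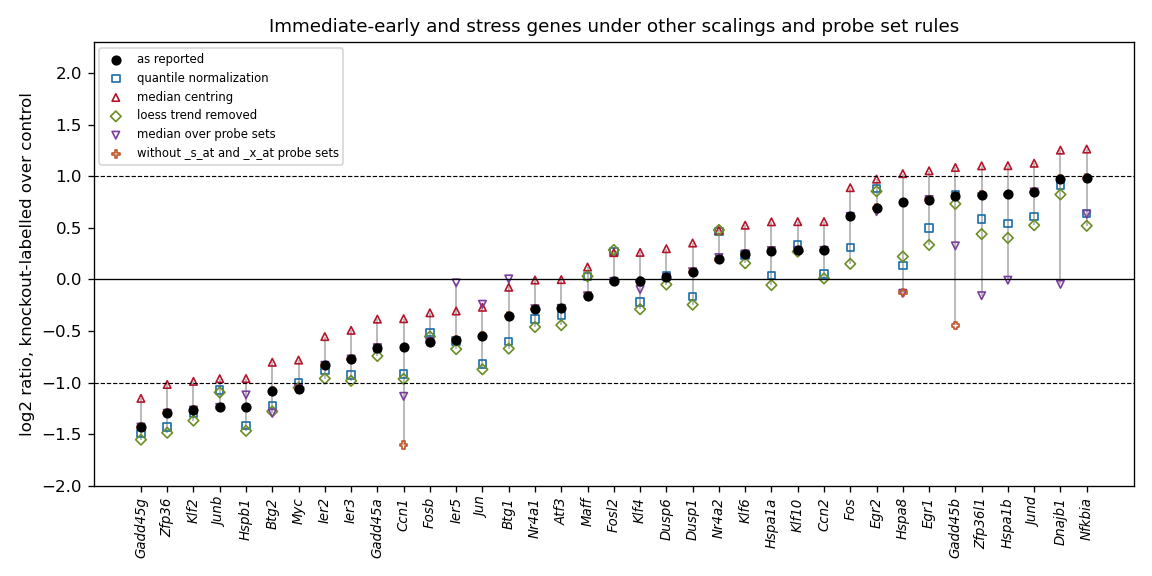
The log2 ratio (y axis, knockout-labelled over control) of 37 genes is shown as reported (black) and under 5 of the alternatives (open symbols), with a grey line over the range of all 8, ordered by the reported value. Gadd45g and Zfp36 stay below the lower dashed 2-fold line under each setting, and Dnajb1 and Zfp36l1 lie below 0 with the median over probe sets.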

How the data were processed

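Pooled uterine stromal RNA was hybridised to 2 one-colour Affymetrix arrays (Mouse Genome 430A 2.0), 1 per genotype, grouped by title. The deposited values are linear intensities, 1 signal per probe set, made by the authors with MAS5 in Affymetrix Expression Console version 1, per the submitters' processing notes. The trimmed mean signal was 150.1 on both arrays. Members and lists were chosen with earlier results of these data known.

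Leaving out 64 controls, the platform annotation gives 1 gene symbol to 20380 probe sets, several to 691 and none to 1555. Symbols were updated through Entrez identifiers for 20351, with a RefSeq table of GRCm38.p6. Signals were raised to the 40th percentile of both arrays pooled (19.7) and put on a log2 scale, and control was subtracted from knockout-labelled. A gene took its brightest probe set, and genes at the floor on both arrays were left out. The size rule was 2-fold. All members are named, with up to 4 genes past 2-fold of each other list. Alternatives were the scaling, floor, pseudocount, probe set rule and fold, and, added after the data had been seen, only genes of one sign. The code of the size rule was checked on control values multiplied by known folds, with no noise added. That check could not measure the error between arrays. The number of arrays limits the precision. Python 3.11.15, pandas 2.3.3 and statsmodels 0.14.6 were used.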

Additional observations from a re-analysis of the deposited data

Results flagged for a closer look

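The 3' to 5' signal ratio of the control probe sets, which enters no gene value, was 16.0 on the knockout-labelled array and 2.27 on the control array for b-actin, and 7.25 and 1.49 for Gapdh. A probe set of Nfkbia that does not represent the gene was higher on the knockout-labelled array, with a log2 ratio of 2.04, and so was a probe set of Klf6, with 1.04. With 1 array per group none of these differences was tested.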

How the results depend on the processing

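The counts of members at least 2-fold lower (7) and higher (0) kept to within 1.5 times under the other scalings, floors and probe set rules except median centring, with 2 lower and 8 higher, beside 7.79% and 13.3% of all genes. At 1.5-fold, 13 members were lower and 10 higher (26.4% and 18.5% of all genes), and at 3-fold none was lower or higher (3.84% and 1.23%). The share of higher genes among all those past 2-fold was 32.3% as deposited, 63.1% with median centring, 46.3% with quantile normalization and 45.3% once the loess trend with signal (span 0.4) was taken out. The median log2 ratio of the heat shock genes was -0.048 with the median over probe sets. Without probe sets that can match several transcripts (_s_at and _x_at), Ccn1 joined the lower members at -1.61, and Gadd45b was at -0.45. With only genes whose probe sets all had one sign, an alternative chosen after seeing the data, 27 members were compared. Of these, 7, or 25.9%, were lower by 2-fold or more, beside 15.6% of 6894 genes. Junb, Klf2, Myc, Zfp36 and Gadd45g, with 1 probe set each, pass this rule of necessity. Btg2 and Hspb1 were already known to keep one sign, so the count could not change. Over 294 values of single members under alternatives, 287 lay within 0.64 of the reported log2 ratio and 7 did not, and 12 of 37 members changed sign at least once, none of them past 2-fold as reported. Floors and probe set rules could not move a bright member with 1 probe set, so such values were bound to stay. No paired analysis was possible because each group has 1 array. What the arrays do not hold is replicates, so none of these values has an error between animals, and dim members such as Fosl2, Nr4a2 and Egr3 lie near or below the floor.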
